A study of Mus musculus with 6 samples.

Results

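The p53 and integrated stress response genes are 10 rows of the gene count table and were picked by symbol as genes that respond to DNA damage, amino acid shortage, or misfolded protein. *Cdkn1a*, *Mdm2*, *Ccng1*, *Bax*, and *Phlda3* are targets of p53, and *Ddit3*, *Trib3*, *Chac1*, *Asns*, and *Hspa5* are targets of ATF4 or of the unfolded protein response. All 10 were found among 48440 rows, and all 10 were among the 18593 genes tested. RNA was sequenced from the microinjected L3/4 dorsal root ganglia (DRGs) of male mice labelled WT. In 3 libraries the ganglia had been given AAV5-*Gfp*, a control vector for green fluorescent protein made from adeno-associated virus. In the other 3 they had been given AAV5-*V1* together with AAV5-*V2* (AAV5-*V1+V2*), the vectors for the transcript variants of *NIS-lncRNA*. The effect of a transgene and that of its virus preparation cannot be told apart. All 6 libraries thus came from ganglia that had been injected with a virus, and uninjected ganglia were not analysed here, so a response that both vectors share does not appear as a difference. The deposited text gives collection at 5 weeks in one place and 4 weeks in another, and the promoter of each vector and the number of mice behind a library are not given in the sources used here. Nothing in the labels says that the libraries of a group came from separate animals, so p-values measure only the spread between these libraries.

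p53 is a transcription factor that accumulates after DNA damage and turns on genes that halt the cell cycle, repair DNA, or start apoptosis. In the integrated stress response, kinases that sense unfolded protein, amino acid shortage, double-stranded RNA, or heme shortage phosphorylate the initiation factor eIF2, which lowers protein synthesis overall and favors translation of ATF4. The unfolded protein response uses one of these kinases, PERK, together with IRE1, which splices the mRNA of XBP1, and ATF6, which raise the chaperones of the endoplasmic reticulum (ER). In sensory neurons ATF3 is a well-known marker of axon injury, whereas secretory cells such as plasma cells keep a high level of ER chaperones through XBP1.

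Of the 10 genes, *Hspa5* alone rose in AAV5-*V1+V2* DRGs, by 32.1%, and none of the 10 fell. The 5 p53 targets differed by log2 fold changes from -0.01 to 0.36 and the other 4 ATF4 or unfolded protein genes by -0.30 to 0.23, without passing the threshold (quasi-likelihood test in edgeR, Benjamini-Hochberg adjusted p under 0.05 over all genes tested). Levels are given as CPM, TMM-normalized counts scaled to a common library size. The 1 higher gene of 10 compares with 10.1% of all genes tested that were higher, and 0 of 10 with 5.27% that were lower. At an unadjusted p under 0.05, 4 of the 10 were higher and 1 was lower, where 19.2% and 15.5% of all genes tested were. DESeq2 called 2 higher and 0 lower, against 12.9% and 8.64% of all genes, and limma-voom 1 and 0, against 7.64% and 4.53%. The libraries of the groups did not overlap for 4 genes that were higher and 2 that were lower with AAV5-*V1+V2*, against 23.4% and 22.0% of all genes tested.

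**Figure D1:**
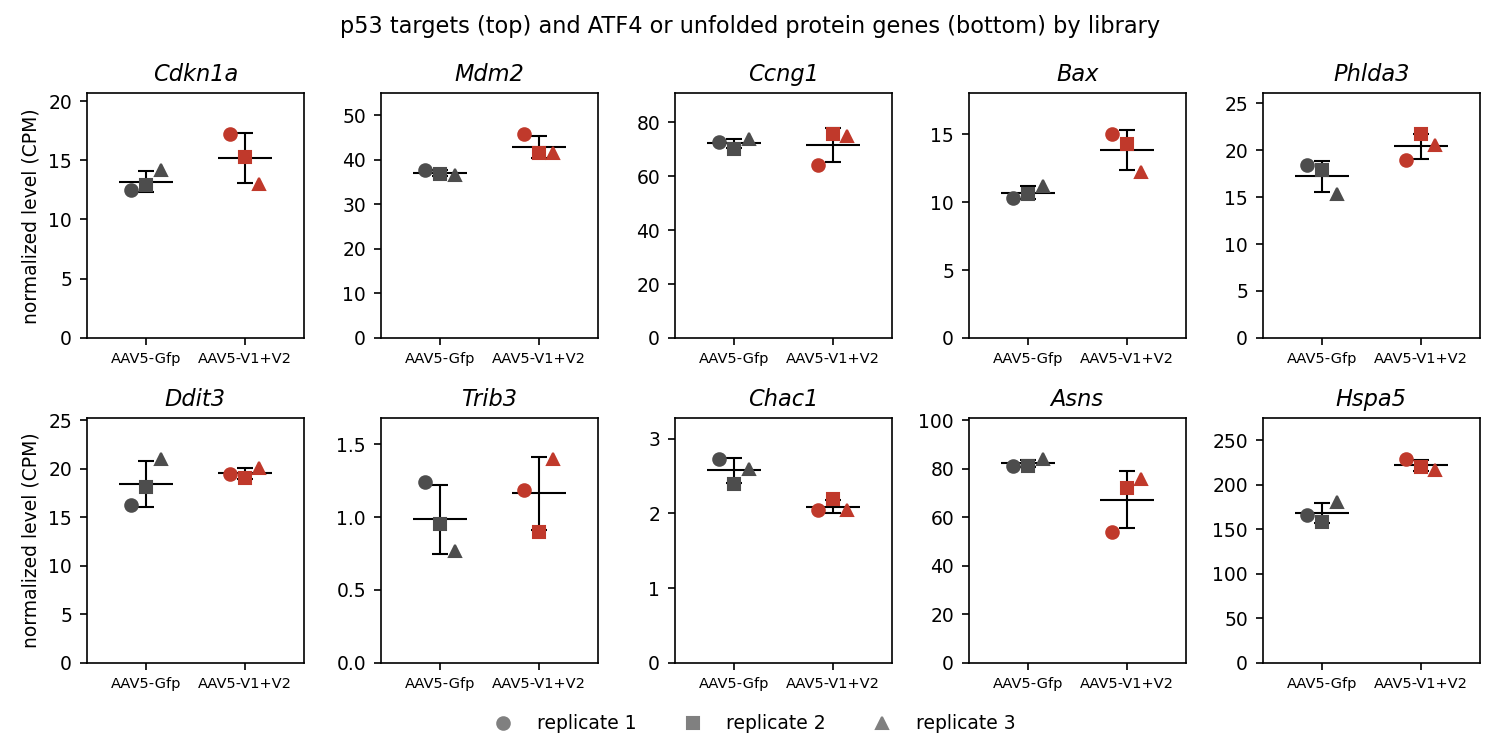
Normalized level (CPM, linear axis from 0) of the 10 genes in each library, with AAV5-*Gfp* in gray and AAV5-*V1+V2* in red. Symbols mark the replicate, and the horizontal line and bars give the mean ± SD of 3 libraries. All 3 red points lie above all gray points for *Mdm2*, *Bax*, *Phlda3*, and *Hspa5*, and below them for *Chac1* and *Asns*.

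Total counts were between 32025612 and 34764282 per library, and the groups overlapped in this. AAV5-*V1+V2* replicate 1 stood apart from the other libraries of its group, with a chi-square per degree of freedom of 32.2 and 48.9 against them, where the other pair had 9.39. Sensory neuron markers were present in every library. Their summed level over 12 genes was 10326 to 11218 CPM with AAV5-*Gfp* and 6628, 9182, and 9674 CPM in AAV5-*V1+V2* replicates 1, 2, and 3. Of these 12, *Rbfox3*, a neuronal splicing factor, was lower (8.33%, beside 5.27% of all genes tested) and 0 were higher. All 12 had a log2 fold change below 0, with a median of -0.41. For 8 of them (66.7%) every AAV5-*V1+V2* library was below every AAV5-*Gfp* library, beside 22.0% of all genes tested. CPM are shares of a library. In whole ganglia, fewer cells of a type, less RNA in each cell, and more RNA from other cells cannot be told apart.

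*Hspa5* encodes BiP, the main Hsp70 chaperone of the ER and the classic readout of the unfolded protein response. It had 166, 158, and 180.2 CPM in AAV5-*Gfp* replicates 1, 2, and 3, and 229, 220.1, and 217 CPM in AAV5-*V1+V2* replicates 1, 2, and 3. Every AAV5-*V1+V2* library was above the highest AAV5-*Gfp* library, and they lay close together. The difference was 0.40 ± 0.07 (SE) on the log2 scale (95% interval 0.23 to 0.58, adjusted p = 0.0198 in edgeR). An exact two-sided permutation test over the libraries gave p = 0.1, the smallest that 3 against 3 allow. *Hspa5* lost its call in 4 of 6 analyses with a library removed. In edgeR its adjusted p was 0.0702, 0.0938, and 0.0875 without AAV5-*Gfp* replicate 1, 2, or 3, and 0.0505 without AAV5-*V1+V2* replicate 2, whereas the log2 fold change stayed between 0.36 and 0.45. In these 4 analyses the number of all genes that rose went from 1872 to 257, 12, 15, and 1020.

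The region before the *Hspa5* start site is shown because it holds the ER stress response element (ERSE), to which ATF6 and NF-Y bind. The 250 bases upstream of the RefSeq start (GRCm38.p6, plus strand, chr2:34771840-34772089) contain 1 match, in capitals, to CCAAT and CCACG with 9 bases of any kind between them, at 65 to 47 bases before the start. The motif was searched in both orientations from 250 bases before to 50 bases after each start.
Hspa5: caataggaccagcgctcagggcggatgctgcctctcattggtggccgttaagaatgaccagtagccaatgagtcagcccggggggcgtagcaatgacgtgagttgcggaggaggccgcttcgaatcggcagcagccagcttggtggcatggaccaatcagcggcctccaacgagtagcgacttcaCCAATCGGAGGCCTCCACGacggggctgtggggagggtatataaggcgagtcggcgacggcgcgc

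Only 37 of 27025 gene symbols with a RefSeq promoter, 0.137%, held this motif, and 20 of the 37 were tested here. Of these 20, 6 rose (30.0%) and 0 fell, beside 10.1% and 5.27% of all genes tested. The 6 are *Hspa5* and 5 genes of the ER list described next, namely *Calr*, *Derl3*, *Hsp90b1*, *Pdia6*, and *Creld2*. *Canx*, *Dnajc3*, and *Syvn1* of the same list also held the motif and did not pass. All 6 thus belong to *Hspa5* and that list, so the count is not independent of it. These genes were named for their motif after their values were seen. The sites are given with 20 bases on either side on the strand of the gene, with the element in capitals, for 3 genes that rose and 2 that did not pass. For *Derl3* and *Creld2* the element runs in the opposite orientation and reads as its reverse complement.
Derl3, chr10:75893222-75893280, plus strand: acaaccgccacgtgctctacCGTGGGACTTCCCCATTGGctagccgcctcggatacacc
Creld2, chr15:88819500-88819558, plus strand: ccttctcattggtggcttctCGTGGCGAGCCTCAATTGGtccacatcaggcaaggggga
Pdia6, chr12:17266471-17266529, plus strand: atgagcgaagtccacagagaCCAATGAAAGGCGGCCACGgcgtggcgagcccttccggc
Canx, chr11:50325780-50325838, minus strand: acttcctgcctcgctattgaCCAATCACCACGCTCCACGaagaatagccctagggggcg
Dnajc3, chr14:118937807-118937865, plus strand: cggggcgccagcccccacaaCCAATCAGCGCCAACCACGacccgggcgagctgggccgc

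Other ER chaperones and targets of ATF6 or XBP1 were higher along with *Hspa5*. Of 22 listed genes, all tested, 13 rose (59.1%), 0 fell, and 9 did not pass, where 10.1% of all genes tested rose and 5.27% fell. The median log2 difference was 0.34, beside -0.0003 over all genes tested. *Derl3*, a factor that moves misfolded protein out of the ER, had 0.775, 0.750, and 0.929 CPM with AAV5-*Gfp* and 3.25, 2.28, and 2.89 CPM with AAV5-*V1+V2*. *Edem1*, which marks misfolded glycoproteins for degradation, went from 26.6 ± 2.32 to 54.6 ± 12.1 CPM (SD, n = 3 each), and *Creld2*, a secreted ER stress protein, from 7.81 ± 0.625 to 14.8 ± 2.39 CPM (SD, n = 3 each). The log2 fold change was 0.44 ± 0.07 (SE) for the cochaperone *Dnajb11* and 0.40 ± 0.07 (SE) for the disulfide isomerase *Pdia6*, near that of *Hspa5*. *Hsp90b1* (0.44) and *Calr* (0.39), a chaperone and a calcium-binding chaperone of the ER, rose by a similar amount. The number of higher genes in this list and the sensors together was 14. By edgeR it was 2, 0, and 0 without AAV5-*Gfp* replicate 1, 2, or 3, and 7 without AAV5-*V1+V2* replicate 2. In the same analyses the number of all genes that rose went from 1872 to 257, 12, 15, and 1020.

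Among the sensors of the unfolded protein response, *Xbp1* rose and the other 5 tested did not pass. *Xbp1*, the transcription factor whose mRNA IRE1 splices, had 43.9, 42.1, and 41.1 CPM in AAV5-*Gfp* replicates 1, 2, and 3, and 71.6, 65.8, and 61.8 CPM in AAV5-*V1+V2* replicates 1, 2, and 3. Its groups were well apart (log2 fold change 0.65 ± 0.07, SE). *Ern1*, which encodes IRE1 alpha, had a log2 fold change of 0.47 (95% interval 0.13 to 0.82) and an adjusted p of 0.0701 from edgeR's test. *Atf6b* had 0.35 (95% interval 0.12 to 0.57), *Mbtps1*, the protease that activates ATF6, had 0.16, and *Atf6* had 0.16. Gene counts do not separate spliced from unspliced *Xbp1*. *Ern2* was not tested because of its low counts.

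Markers of antibody-secreting cells moved with these genes. The summed level of 12 B and plasma cell genes was 64.9 to 77.1 CPM with AAV5-*Gfp* and 452, 351, and 332 CPM in AAV5-*V1+V2* replicates 1, 2, and 3, and 11 of the 12 rose, with none at 0 across the AAV5-*Gfp* libraries. *Xbp1* stands in this list too. It made up 41.1 to 43.9 CPM of the sum with AAV5-*Gfp*, most of it, and 61.8 to 71.6 CPM with AAV5-*V1+V2*. *Derl3* is known as strongly expressed in plasma cells. The immunoglobulin joining chain *Jchain* went from 2.14 ± 1.52 to 181 ± 12.5 CPM (SD, n = 3 each). The part of these cells in the difference of *Hspa5* was not tested. The summed level of T and natural killer cell markers was 4.79 to 12.2 CPM with AAV5-*Gfp* and 41.7 to 93.1 CPM with AAV5-*V1+V2* (10 of 11 tested genes rose). For macrophages it was 183 to 249.6 and 504 to 1423 CPM (10 of 12), and for dividing cells 40.1 to 45.4 and 82.4 to 153 CPM (10 of 12). Of these 4 cell lists, 0 held a gene that fell. Over all genes tested, 10.1% rose and 5.27% fell. Some B and plasma cell and T and natural killer cell markers had too few AAV5-*Gfp* reads to pass the filter on those libraries. They were tested only through the AAV5-*V1+V2* libraries, so their direction was largely fixed by the filter.

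**Figure D2:**
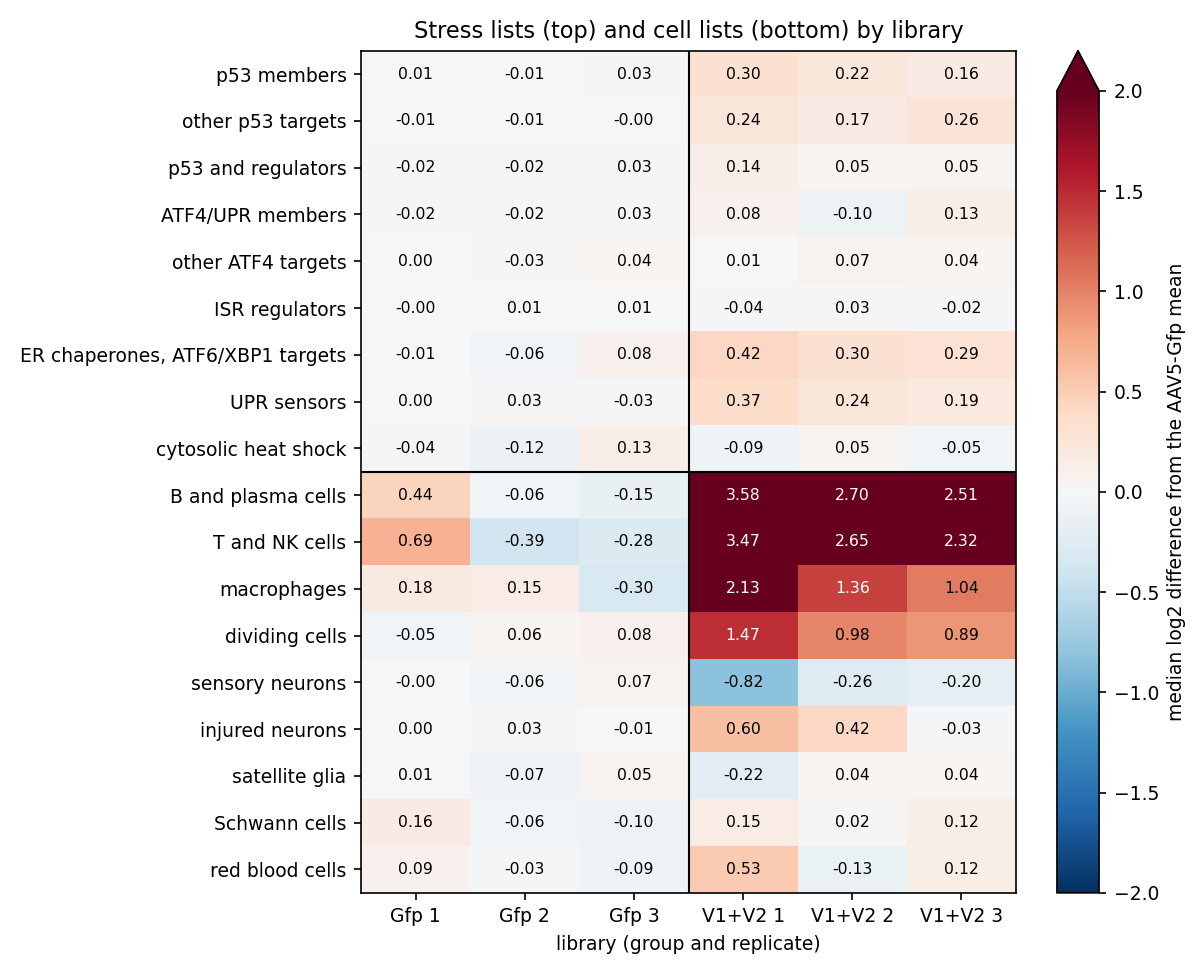
Median over the tested genes of each list of the log2 CPM difference from the AAV5-*Gfp* mean, for each library, with the stress lists above the black line and the cell lists below it. Color runs from -2 to 2, and larger values share the darkest red. ER chaperones are at 0.42, 0.30, and 0.29 in AAV5-*V1+V2* replicates 1, 2, and 3, B and plasma cell genes at 3.58, 2.70, and 2.51, and ATF4 targets at 0.01, 0.07, and 0.04.

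None of the 4 other ATF4 or unfolded protein members passed. *Ddit3*, which encodes the proapoptotic factor CHOP, had 16.3, 18.1, and 21.0 CPM with AAV5-*Gfp* and 19.5, 19.0, and 20.1 CPM with AAV5-*V1+V2* in replicates 1, 2, and 3. All 3 AAV5-*V1+V2* libraries lay within the range of the AAV5-*Gfp* libraries, and the 95% interval of the log2 fold change of 0.08 ran from -0.16 to 0.32. *Ddit3* shares 68 bases with *Mars* on the opposite strand, and whether the counting used strand is not given in the sources used here. In GENCODE M21 a second protein-coding entry, also named *Ddit3*, shares 2925 bases with it on the same strand. How reads of the shared bases were counted is not given either. *Trib3*, a pseudokinase that CHOP and ATF4 induce, was counted at only 40, 33, and 24 reads with AAV5-*Gfp* and at 39, 30, and 48 reads with AAV5-*V1+V2*. Its groups overlapped, and the interval of its log2 fold change was wide, from -0.39 to 0.86. The estimate of 0.23 became 0.43 and 0.09 without AAV5-*Gfp* replicate 1 or 3, and 0.40 and 0.09 without AAV5-*V1+V2* replicate 2 or 3.

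*Chac1* and *Asns* were on the lower side. *Chac1*, a glutathione-degrading enzyme that responds to ATF4, had 2.73, 2.40, and 2.60 CPM in AAV5-*Gfp* replicates 1, 2, and 3, and 2.04, 2.19, and 2.04 CPM in AAV5-*V1+V2* replicates 1, 2, and 3. The groups did not overlap, but they rest on 67 to 88 reads per library, and the log2 fold change of -0.30 had a 95% interval of -0.64 to 0.05 (adjusted p = 0.195 from edgeR's test). *Asns*, which makes asparagine from aspartate, had 81.3, 81.4, and 84.1 CPM with AAV5-*Gfp* and 53.8, 72.2, and 75.7 CPM with AAV5-*V1+V2* in replicates 1, 2, and 3. The AAV5-*Gfp* libraries were tightly grouped, and AAV5-*V1+V2* replicate 1 was the lowest. On the log2 scale the difference was -0.29 ± 0.12 (SE, adjusted p = 0.143 in edgeR), and without AAV5-*V1+V2* replicate 1 it was -0.15 (adjusted p = 0.0803). That library also had the lowest summed level of sensory neuron markers, and the part of this in *Asns* was not tested.

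Within a library, *Hspa5* and *Asns* can be set against each other without regard to library size. The log2 ratio of *Hspa5* to *Asns* counts was 1.03, 0.96, and 1.10 in AAV5-*Gfp* and 2.09, 1.61, and 1.52 in AAV5-*V1+V2* libraries, a difference of 0.71. For *Hspa5* over *Ddit3* the mean log2 ratio was 3.19 ± 0.13 in the AAV5-*Gfp* libraries and 3.51 ± 0.07 in the AAV5-*V1+V2* libraries (SD, n = 3 each). For *Hspa5* over *Chac1* it was 6.03 ± 0.10 and 6.73 ± 0.08 (SD, n = 3 each). In each of these 3 ratios the groups did not overlap, and the exact two-sided permutation p was 0.1 in each, the smallest possible here. For the ratios to *Asns* and *Chac1* this was fixed in advance and adds no evidence. *Hspa5* was already higher, and *Asns* and *Chac1* already lower, without overlap. Of 6 ratios computed, the other 3 were between p53 targets. The mean log2 ratio of *Bax* to *Ccng1* differed by 0.37 (exact permutation p = 0.1), and the groups overlapped for *Bax* over *Mdm2* (difference 0.15, exact permutation p = 0.2) and *Cdkn1a* over *Ccng1* (0.21, exact permutation p = 0.4).

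Promoters of *Chac1*, *Asns*, and *Trib3* held the C/EBP-ATF response element through which ATF4 acts, searched as TGATGNAA in both orientations. The element is present in 4.51% of gene symbols with a RefSeq promoter, and in 10 of the 30 other ATF4 targets that have one. The match lies 193 to 186 bases before the start in *Chac1*, as the reverse complement, 23 to 16 bases before it in *Asns*, and 15 to 22 bases within the transcript in *Trib3*. Of those 10, 9 were tested, and 2 rose, *Nupr1* and *Atf3*, and 0 fell. In both the match lies 110 to 103 bases before the start, as the reverse complement. The *Chac1* and *Asns* sites are shown with the element in capitals. Both genes lay on the lower side, and neither passed.
Chac1, chr2:119351029-119351076, plus strand: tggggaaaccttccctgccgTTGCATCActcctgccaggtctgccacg
Asns, chr6:7693210-7693252, minus strand: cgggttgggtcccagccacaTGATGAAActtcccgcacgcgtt
Among all 386 tested genes with this element, 15.5% were higher and 5.70% were lower, beside 10.1% and 5.27% of all genes tested. Their median log2 difference was 0.01.

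Among the other ATF4 targets, 34 of 36 listed genes were tested, 3 rose (8.82%), 0 fell, and 31 did not pass. This is near the 10.1% of all genes tested that rose, where 5.27% fell. The median log2 fold change of the list was 0.04. *Stc2*, a secreted glycoprotein of the stress response, had 0.651, 0.519, and 0.705 CPM with AAV5-*Gfp* and 1.58, 1.29, and 1.40 CPM with AAV5-*V1+V2*. *Nupr1*, a stress-induced chromatin protein, went from 3.92 ± 0.334 to 6.42 ± 0.914 CPM (SD, n = 3 each). *Atf3* had 13.5, 12.1, and 13.2 CPM with AAV5-*Gfp* and 24.7, 25.5, and 16.5 CPM with AAV5-*V1+V2*, a log2 fold change of 0.78 ± 0.17 (SE). Of 11 tested markers of injured sensory neurons, *Atf3* among them, 3 rose (27.3%) and 0 fell, beside 10.1% and 5.27% of all genes tested. Their groups did not overlap for 5 that were higher and 2 that were lower, beside 23.4% and 22.0% of all genes tested. *Cebpb* (log2 fold change 1.19, 95% interval 0.36 to 2.01) and *Shmt2* (0.29, 95% interval 0.08 to 0.50) did not pass. The aminoacyl-tRNA synthetases of the list, grouped after their values were seen, had a median log2 fold change of -0.20. For 5 of these 6 every AAV5-*V1+V2* library was below every AAV5-*Gfp* library, as for 22.0% of all genes tested, but 0 passed.

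Of 15 tested kinases and factors of the integrated stress response, 0 passed in edgeR's quasi-likelihood test, with a median log2 fold change of -0.05. Over all genes tested, 10.1% were higher and 5.27% were lower. *Eif2ak3*, which encodes PERK, had 47.4, 47.6, and 43.5 CPM with AAV5-*Gfp* and 54.0, 51.8, and 53.4 CPM with AAV5-*V1+V2*, and the groups did not overlap (log2 fold change 0.20, 95% interval 0.05 to 0.35). *Ppp1r15b*, a phosphatase subunit that reverses eIF2 phosphorylation, had a log2 fold change of 0.35 (95% interval 0.09 to 0.61). For *Oma1*, a mitochondrial protease, it was 0.32, for *Eif2b4*, a subunit of the exchange factor eIF2B, it was -0.25, and for *Eif2b3* it was -0.12. Across the ATF4 targets and these factors together, 11 genes of 49 (22.4%) were higher and 5 (10.2%) were lower at an unadjusted p under 0.05, near the 19.2% and 15.5% of all genes, and DESeq2 called 5 and 0. The 3 that rose by edgeR became 0 without any one of the AAV5-*Gfp* libraries and 5 without AAV5-*V1+V2* replicate 3. Over all genes tested, the 1872 that rose became 257, 12, and 15 without AAV5-*Gfp* replicate 1, 2, or 3. They became 2474 without AAV5-*V1+V2* replicate 3. Cytosolic heat shock genes, which answer to misfolded protein outside the ER, had a median log2 fold change of -0.05 over 12 genes, of which 0 passed in either direction. At an unadjusted p under 0.05, 1 of these (8.33%) was higher and 1 was lower, below the shares over all genes, the latter being the cochaperone *Bag3* (log2 fold change -0.37), and DESeq2 and limma-voom called 0.

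**Figure D3:**
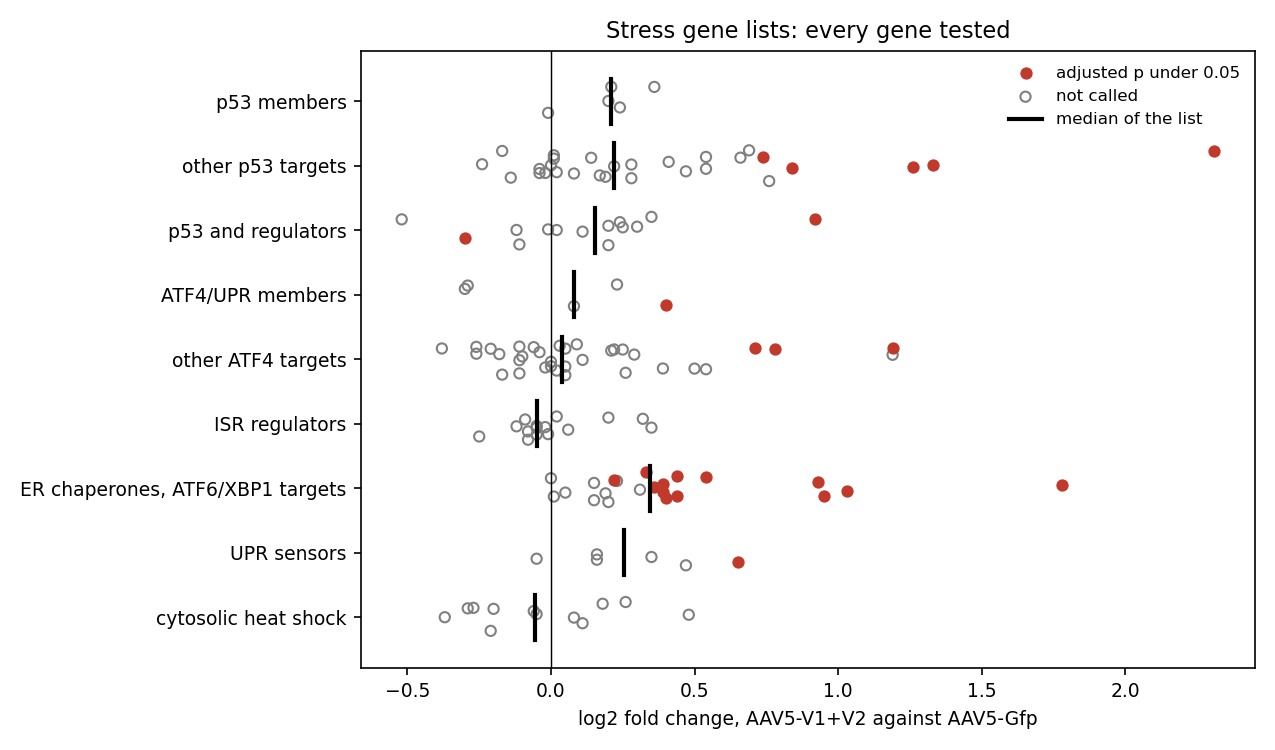
Log2 fold change of AAV5-*V1+V2* against AAV5-*Gfp* for every tested gene of the stress lists, with genes that passed an adjusted p under 0.05 in red, the others as open circles, and the median of a list as a black line. The 13 red points of the ER chaperones lie to the right of 0, and the ATF4 targets and regulators scatter around 0 with medians of 0.04 and -0.05.

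Of the p53 targets among the 10, *Bax* had the largest difference. *Bax*, which opens the outer mitochondrial membrane in apoptosis, had 10.3, 10.6, and 11.2 CPM in AAV5-*Gfp* replicates 1, 2, and 3, and 15.0, 14.3, and 12.2 CPM in AAV5-*V1+V2* replicates 1, 2, and 3. The groups did not overlap, although AAV5-*V1+V2* replicate 3 was near AAV5-*Gfp* replicate 3. In GENCODE M21 *Bax* shares 915 bases with *Gm45808* on the same strand, which had no row of its own. The log2 fold change was 0.36 (95% interval 0.11 to 0.61), and the adjusted p was 0.0586 from edgeR's test. It was under 0.05 with DESeq2 (0.0429), with total counts in place of TMM (0.0431 from edgeR), and without AAV5-*V1+V2* replicate 3 (0.0256 from edgeR).

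*Mdm2*, the ubiquitin ligase that degrades p53 and is itself induced by it, had 37.7, 36.7, and 36.6 CPM with AAV5-*Gfp* and 45.7, 41.5, and 41.4 CPM with AAV5-*V1+V2*. All AAV5-*V1+V2* libraries were above the AAV5-*Gfp* libraries, with replicate 1 the highest. Its log2 fold change was 0.21 (95% interval 0.05 to 0.37, adjusted p = 0.0735 from edgeR's test), and it passed with total counts in place of TMM (0.0458 from edgeR). *Phlda3*, which restrains Akt signaling, had 18.4, 17.9, and 15.3 CPM with AAV5-*Gfp* and 19.0, 21.7, and 20.5 CPM with AAV5-*V1+V2*. The groups were adjacent without overlap, and the log2 fold change was 0.24 (95% interval 0.01 to 0.48, adjusted p = 0.128 from edgeR's test).

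*Cdkn1a*, which encodes the cell cycle inhibitor p21, had 12.5, 12.9, and 14.2 CPM with AAV5-*Gfp* and 17.2, 15.3, and 13.0 CPM with AAV5-*V1+V2*. The groups overlapped, with AAV5-*V1+V2* replicate 3 at the level of the AAV5-*Gfp* libraries, and the log2 fold change was 0.20 (95% interval -0.08 to 0.48). It was 0.11 without AAV5-*V1+V2* replicate 1 and 0.31 without replicate 3. *Ccng1*, the cyclin G1 gene and a broad p53 target, had 72.7, 70.2, and 73.7 CPM with AAV5-*Gfp* and 64.3, 75.6, and 75.0 CPM with AAV5-*V1+V2*. Its groups overlapped, with AAV5-*V1+V2* replicate 1 the lowest library and the other two the highest, and the 95% interval of the log2 fold change ran from -0.19 to 0.17.

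The *Cdkn1a* promoter is shown because a pair of p53 site cores lies near its first RefSeq start. It was searched as CATG and CATG with 6 bases of any kind between them, which covers both orientations, and occurs in 0.833% of gene symbols with a RefSeq promoter. The match, in capitals, lies 48 to 35 bases before the start, and the promoters of *Mdm2*, *Ccng1*, *Bax*, and *Phlda3* held no such letters in this window.
Cdkn1a, chr17:29090911-29090964, plus strand: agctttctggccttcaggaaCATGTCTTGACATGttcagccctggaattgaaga

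**Figure D4:**
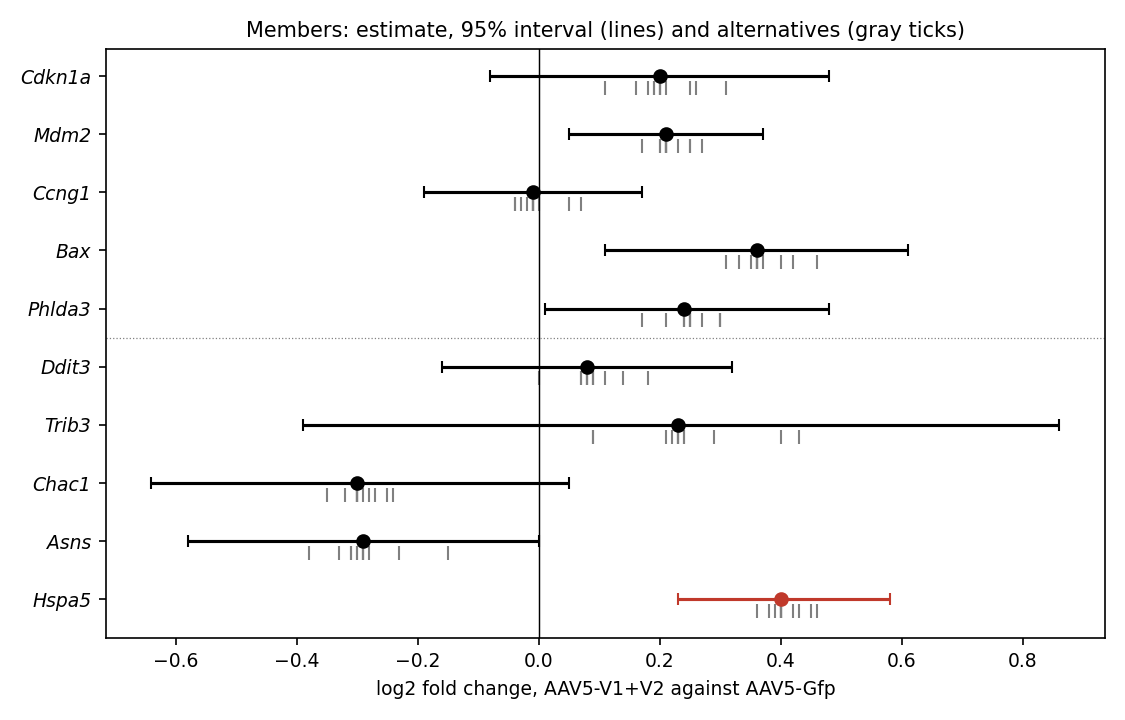
Log2 fold change of AAV5-*V1+V2* against AAV5-*Gfp* for the 10 genes, as points with 95% intervals from edgeR's quasi-likelihood fit, p53 targets above the dotted line. Gray ticks show the value in each of 13 other analyses. *Hspa5*, in red, is the gene that passed, and its values run from 0.36 to 0.46.

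Some genes in a longer list of other p53 targets differed by more. Of 30 listed genes, 29 were tested, 5 rose (17.2%), 0 fell, and 24 did not pass, where 10.1% of all genes tested rose and 5.27% fell. The median log2 difference was 0.22, near the 0.21 of the 5 p53 targets among the 10. *Trp53inp1*, a proapoptotic and autophagy protein, had 38.1, 38.0, and 38.3 CPM in AAV5-*Gfp* replicates 1, 2, and 3 and 75.0, 64.2, and 65.9 CPM in AAV5-*V1+V2* replicates 1, 2, and 3. At 0.84 ± 0.08 (SE) on the log2 scale it was the gene of the list with the smallest p. *Pmaip1*, which encodes the BH3-only protein NOXA, went from 2.61 ± 0.228 to 4.36 ± 0.361 CPM, and the antiproliferative gene *Btg2* from 8.13 ± 0.488 to 19.5 ± 5.65 CPM (SD, n = 3 each). The other genes that rose are also known from immune cells or interferon responses. *Tap1*, a peptide transporter for antigen presentation, had 80.1, 45.7, and 31.5 CPM in AAV5-*V1+V2* replicates 1, 2, and 3 against 8.43 to 12.7 CPM with AAV5-*Gfp*. *Fas*, a death receptor, had 15.0, 8.08, and 8.22 CPM against 3.32 to 5.45 CPM. The order of the AAV5-*V1+V2* libraries in *Tap1* was that of the B and plasma, T, and macrophage marker lists. This order was not particular to *Tap1*. *Btg2*, *Pmaip1*, *Bax*, and *Cdkn1a* had it too, whereas *Fas* and *Trp53inp1* did not. The part of those cells was not tested.

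Among p53 itself and its regulators, 14 of 15 listed genes were tested. Of these 14, 1 rose (7.14%), 1 fell (7.14%), and 12 did not pass, beside 10.1% and 5.27% of all genes tested. *Chek2*, a kinase activated by DNA breaks, had 2.85, 2.83, and 3.33 CPM with AAV5-*Gfp* and 7.66, 4.69, and 4.66 CPM with AAV5-*V1+V2* (log2 fold change 0.92 ± 0.22, SE). *Trp53bp1*, which binds at DNA breaks, had 115, 116, and 119.9 CPM with AAV5-*Gfp* and 87.7, 94.0, and 103 CPM with AAV5-*V1+V2* (log2 fold change -0.30 ± 0.07, SE). *Trp53* had a log2 fold change of 0.30 (95% interval 0.02 to 0.58, adjusted p = 0.124 from edgeR's test), and *Mdm4*, its inhibitor, of 0.35 (95% interval 0.12 to 0.59, adjusted p = 0.0538). *Trp63* was at -0.52, with overlapping groups. Over the targets and regulators together, at an unadjusted p under 0.05, 13 genes of 43 (30.2%) were higher and 2 (4.65%) were lower, beside 19.2% and 15.5% of all genes. By edgeR, the 6 that rose became 2, 0, and 0 without AAV5-*Gfp* replicate 1, 2, or 3, and *Trp53bp1* lost its call there and without AAV5-*V1+V2* replicate 2. Without those AAV5-*Gfp* libraries, the number of all genes that rose went from 1872 to 257, 12, and 15. The number that fell went from 980 to 59, 0, and 0, and to 150 without AAV5-*V1+V2* replicate 2.

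The level of the 10 genes, as CPM per kilobase of merged GENCODE M21 exons, was highest for *Hspa5* and lowest for *Trib3* in both groups. *Hspa5* had 39.8 ± 2.64 CPM per kilobase, *Asns* 30.1 ± 0.581, and *Ccng1* 20.6 ± 0.522 (SD, n = 3 each). *Phlda3*, at 11.0 ± 1.06, and *Ddit3*, at 10.8 ± 1.37 CPM per kilobase, did not differ beyond their spread. *Mdm2* had 7.28 ± 0.125, *Bax* 6.81 ± 0.308, *Cdkn1a* 3.71 ± 0.243, *Chac1* 1.57 ± 0.102, and *Trib3* 0.464 ± 0.112 CPM per kilobase (SD, n = 3 each). With AAV5-*V1+V2* the order of the means was the same but for *Bax* and *Mdm2*, whose libraries overlapped at 8.76 ± 0.915 and 8.43 ± 0.483 CPM per kilobase (SD, n = 3 each). Merged exons overstate the length of a gene whose long exons are little used. For *Ddit3* the exons of both entries with that name were merged.

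The genes whose profile over the 6 libraries came closest to that of *Cdkn1a* were *Naf1*, *Ints6*, and *Zfp935*, with root mean square differences of 0.032, 0.035, and 0.039 between centered log2 CPM values among 14563 genes. For *Ddit3* they were *Agpat4* (0.029), *Tex21* (0.034), and *Eif3j1* (0.037). None of these 6 was in the stress lists.

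In the remaining cell lists, 2 of 9 satellite glial genes rose (22.2%), *Slc1a3* and *Gfap*, and 0 fell. Their median log2 fold change was -0.01. Beside this, 10.1% of all genes tested rose and 5.27% fell. Of 8 Schwann cell genes 0 passed, with a median of 0.08. Red blood cell genes had a median of 0.18, with 0 of 6 passing. Skeletal muscle genes summed to 26.8, 411, and 116 CPM in AAV5-*Gfp* replicates 1, 2, and 3 and to 122, 45.1, and 10.8 CPM in AAV5-*V1+V2* replicates 1, 2, and 3, and 0 of 8 passed in edgeR at a median log2 fold change of -1.62.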

How the data were processed

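RNA sequencing was performed on 3 AAV5-*Gfp* and 3 AAV5-*V1+V2* DRG libraries (stranded total RNA kit). Raw read counts for each gene symbol were deposited by the authors, with GRCm38 and mm10 named in the submitters' processing notes. The aligner, counter, annotation, and use of strand are not given in the sources used here. Counts were filtered (filterByExpr), TMM-normalized, and tested with edgeR 4.0.16 (glmQLFit, glmQLFTest, no covariate) in R 4.3.3, with Benjamini-Hochberg adjustment over 18593 genes. Standard errors were derived from each coefficient and its F value, and intervals used the fit's degrees of freedom. No 2 libraries of a group agreed within sampling noise (chi-square per degree of freedom from 8.27 to 48.9).

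The members and gene lists were chosen with earlier results of these data known. The text names all 10 members, up to 5 genes of each stress list and 2 of each cell list by the smallest p, and other genes were named after their values were seen (*Hsp90b1*, *Calr*, and the genes named for a motif). *Dele1* had no row. Promoters came from RefSeq (GRCm38.p6), with a start for all 10 members. Exact tests used scipy 1.17.1. Alternatives were RLE, total counts, 2 filters, DESeq2 1.42.0, limma-voom (limma 3.58.1), a replicate block, a 2-fold or looser threshold, and 6 analyses with a library removed. The test was checked on simulated counts.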

Additional observations from a re-analysis of the deposited data

How the results depend on the processing

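*Hspa5* kept its direction in all 13 alternative fits and its call in 9. With single libraries removed, 0 to 2 of the 10 genes were higher, 0 to 9 of the p53 list genes were higher and 0 to 1 lower, 0 to 5 of the ATF4 and integrated stress response list genes were higher and 0 to 1 lower, 0 to 16 of the unfolded protein response list genes were higher, and 12 to 2474 of all genes were higher and 0 to 1446 lower, against 1, 6, 1, 3, 0, 14, 1872, and 980 with all libraries. The cause of these losses was not tested. With total counts in place of TMM, 3 of the 10 genes, 10 p53 list genes, and 6 ATF4 list genes were higher. DESeq2 gave 2 of the 10, 5 ATF4 list genes higher, and 1606 of all genes lower. By their construction, thresholds moved the counts. A 2-fold change left 0 of the 10 genes, 3 p53 list genes higher and 0 lower, 1 ATF4 list gene, 2 unfolded protein response genes, and 1052 higher and 47 lower of all genes. An adjusted p under 0.1 gave 3 of the 10, 10 p53 list genes, 8 ATF4 list genes higher and 1 lower, and 2898 higher and 2030 lower of all genes. *Ccng1* changed sign with total counts (0.05), without AAV5-*Gfp* replicate 3 (0.00), and without AAV5-*V1+V2* replicate 1 (0.07), and *Ddit3* did so without AAV5-*Gfp* replicate 1 (-0.00). With single libraries removed their ranges were -0.04 to 0.07 and -0.00 to 0.18. Libraries with the same replicate number deviated together only weakly (correlations of 0.036, 0.0658, and 0.107 across genes), and 5 of 6 libraries correlated best with their own number. With the replicate block, 1 of the 10 genes was higher, 8 p53, 3 ATF4, and 14 unfolded protein response list genes were higher, and 2118 of all genes were higher and 1341 lower. Counts of 24 to 48 reads limit *Trib3*.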
